A study of Homo sapiens with 12 samples.

Results

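The RNA of 40 lysosomal genes was followed in IMR-90 human lung fibroblasts, out of 19775 genes that the arrays measured. The list held 41 genes: enzymes that break down sugars, sulfated sugars, proteins and lipids, proteins of the lysosomal membrane, subunits of its proton pump, and the regulator TFEB. A gene counted as measured where at least 1 probe set (a group of short probes on the array) named it and no other gene, and the mean of these probe sets was taken per gene. This gave 103 probe sets for 40 genes, 15 of them with 1 probe set and 25 with several. GLB1, which encodes the beta-galactosidase behind the common stain for senescent cells, was the exception: its 1 probe set also names TMPPE, so it is given apart.

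IMR-90 is a diploid fibroblast line from fetal lung that divides a limited number of times before it enters senescence, a lasting arrest. The study measured 12 Affymetrix arrays in 4 groups of 3 biological replicates: old nonsenescent cells at 53 population doublings in 3% oxygen, senescent cells at 48 doublings in 20% oxygen, young cells at 30 doublings in 3% oxygen, and young cells at 30 doublings in 20% oxygen. All came from 1 line, without genetic change or drug, and each oxygen level had its own incubator, so oxygen and incubator cannot be told apart. At 20% oxygen the senescent cells were also the only late ones, so that doublings and senescence cannot be told apart there. Nothing but the labels, which call them biological replicates, says that the 3 samples of a group came from separate cultures. The p-values rest on the spread between samples within groups, pooled over the 4 groups and adjusted with the spread of all genes. The deposited values are log2 signals centred so that the median of a probe set is 0 across the 12 arrays, 1 unit is taken as a doubling, and levels of different genes cannot be compared.

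Lysosomes are acidic organelles in which hydrolases digest material delivered by endocytosis and autophagy. Most soluble hydrolases are tagged with mannose 6-phosphate in the Golgi and sorted by its receptors, while a vacuolar proton pump keeps the lumen acid and heavily glycosylated membrane proteins line it. Many of the genes carry a short promoter element, the CLEAR element, built on the E-box letters CACGTG and bound by TFEB and its relatives. Senescent fibroblasts are known for a large lysosomal compartment, and the stain for senescence reads a lysosomal beta-galactosidase at a pH away from its optimum.

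The search covered promoters of 28 of the 41 genes from the RefSeq table (GRCh38, 250 bases before to 50 after each start). Of the other listed genes, some were left out by position before this count, as given under processing, and the rest had no promoter in that table. Genes of the whole table were not left out by position, so the shares below compare sets filtered differently. CACGTG was in 9 of the 28 (32.1%), compared with 8.8% of the 27305 genes in that table, and the longer form TCACGTG, read on either strand, was in 8 (28.6%), compared with 4.5%. The core of the hypoxia response element, ACGTG or GCGTG on either strand, was in 19 (67.9%), compared with 52.4%. Every CACGTG also holds ACGTG, so these counts overlap. Windows of 6 genes are shown because they carry the E-box and stand for the roles on the list, and that of ATP6AP1 because its RNA had the smallest adjusted p of the 40 genes. Capitals mark CACGTG in the first 6, and the hypoxia core (GCGTG, and ACGTG read on the other strand as CACGT) in ATP6AP1. All are written 5′ to 3′ on the strand of the gene, at chr13:113297032-113297231 (plus), chr20:45891278-45891330 (plus), chr17:80101490-80101570 (plus), chr19:7522568-7522623 (plus), chr11:1763954-1763989 (minus), chr16:67481196-67481231 (minus) and chrX:154428480-154428531 (plus).
LAMP1: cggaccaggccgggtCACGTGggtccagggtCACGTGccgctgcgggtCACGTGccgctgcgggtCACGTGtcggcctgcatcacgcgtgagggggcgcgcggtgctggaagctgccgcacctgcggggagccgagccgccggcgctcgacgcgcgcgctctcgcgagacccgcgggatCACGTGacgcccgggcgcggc
CTSA: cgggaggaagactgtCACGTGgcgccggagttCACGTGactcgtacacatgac
GAA: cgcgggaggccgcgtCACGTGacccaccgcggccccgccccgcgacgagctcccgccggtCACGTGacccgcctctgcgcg
MCOLN1: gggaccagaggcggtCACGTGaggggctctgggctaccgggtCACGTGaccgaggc
CTSD: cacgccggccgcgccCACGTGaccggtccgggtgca
ATP6V0D1: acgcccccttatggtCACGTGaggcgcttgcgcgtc
ATP6AP1: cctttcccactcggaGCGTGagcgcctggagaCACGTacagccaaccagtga
The LAMP1 window held 5 E-boxes between 28 and 192 bases before the start, 4 of them in a row. CTSA, GAA and MCOLN1 had 2 each. Of the 27 measured genes with a searched promoter, 3 of the 9 with CACGTG were higher in senescent cells than in the mean of the other groups (CTSA, CTSD and LAMP1). So were 8 of the 18 without it, with 1 lower, and the median log2 difference was 0.21 in both sets. The called genes whose promoters were not searched (CTSB, ASAH1, SGSH, LGMN, PSAP and LAMP2) are not in this split. GAA, MCOLN1 and ATP6V0D1 carried the letters and were not called. A match of letters is a description of these windows and shows no binding.

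The senescent group stood apart. Set against the mean of the other 3 groups, 17 of 40 lysosomal genes rose in senescent cells and 1, NPC1, fell (limma, adjusted p under 0.05 over all 19775 genes, the rule for every call here). That was 42.5% higher and 2.5% lower, where 5.25% of all genes were called higher and 7.81% lower. The median log2 difference was 0.23 over the 40 genes and 0.04 over all genes. The other 3 groups include both groups in 3% oxygen, so this contrast mixes oxygen with senescence. Against young cells in the same 20% oxygen, 9 of the 40 genes rose and 2 fell. All 3 senescent arrays lay above all 9 others for 16 of the 40 genes (40%), which held for 4.19% of all genes. They lay below all 9 others for NPC1 alone (2.5%), which held for 4.15% of all genes. The rises were all below a doubling, from 1.2-fold to 1.75-fold. Leaving out an array moved the count: 11 genes were called in both directions together without senescent replicate 1 and 10 without senescent replicate 2. In bulk RNA, more cells of a kind and more RNA per cell cannot be told apart.

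**Figure D1:**
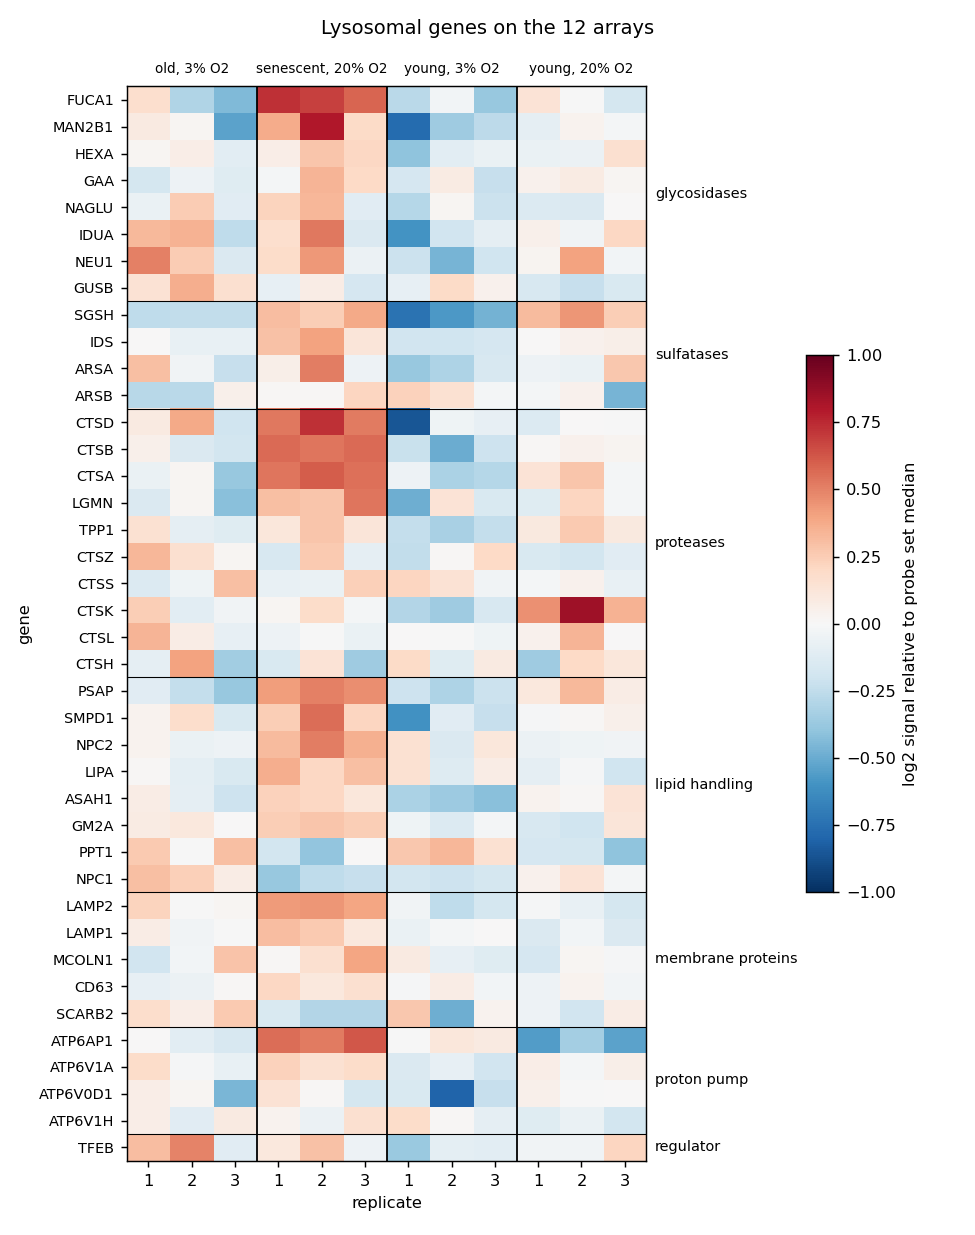
Log2 signal of 40 lysosomal genes (rows, by role) on 12 arrays (columns: old 3%, senescent 20%, young 3% and young 20% oxygen, replicates 1 to 3), centred per probe set across the arrays. The senescent columns are high for most enzymes, and the young 3% columns hold the lowest mean for 21 of 40 genes.

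The order of the groups differed by gene, but had a common outline. The senescent mean was the highest of the 4 for 26 of 40 genes, compared with 31.7% of all genes. The young 3% mean was the lowest for 21 of 40, compared with 36.5% of all genes. The median of the 40 genes on each array was 0.19, 0.28 and 0.17 in senescent cells, against 0.07, -0.01 and -0.11 in old 3%, -0.18, -0.12 and -0.14 in young 3% and -0.03, 0.01 and -0.0008 in young 20% cells. The senescent arrays were thus the 3 highest and the young 3% arrays the 3 lowest.

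**Figure D2:**
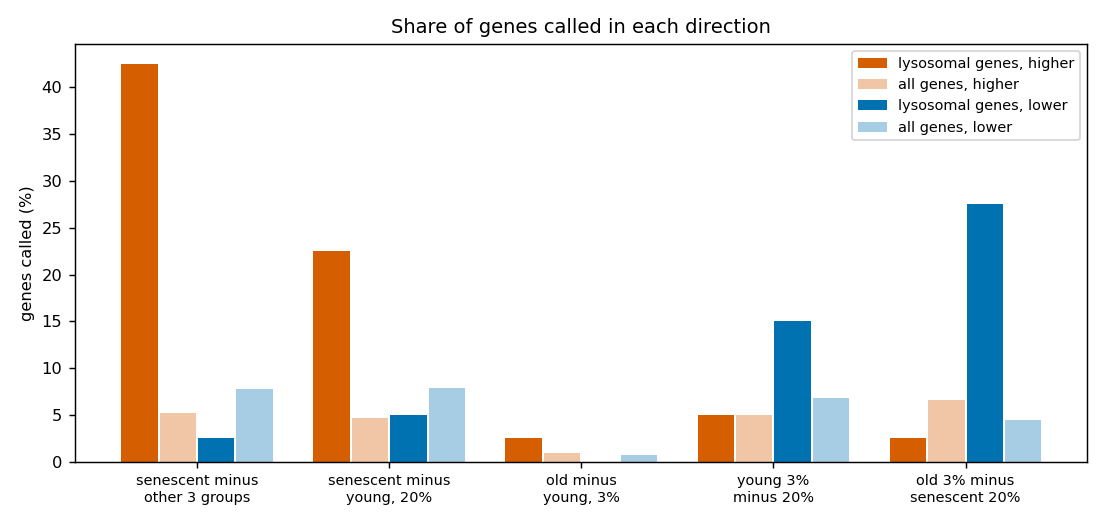
Percentage of lysosomal genes (n = 40) and of all genes (n = 19775) called higher or lower at a limma adjusted p under 0.05 in each comparison. In senescent cells against the mean of the other groups, 42.5% of lysosomal genes were higher, compared with 5.25% of all genes.

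Of the 4 proton pump genes measured, ATP6AP1 rose in senescent cells and the others were not called. ATP6AP1 encodes an accessory subunit that helps to assemble the pump. Its log2 values were 0.56, 0.52 and 0.62 on the senescent arrays, against 0.01, -0.10 and -0.16 on the old 3% arrays, -0.01, 0.11 and 0.09 on the young 3% arrays and -0.55, -0.34 and -0.54 on the young 20% arrays. The groups did not overlap except for the old and young 3% arrays, with senescent cells highest and young 20% cells lowest. ATP6AP1 rose 2.06-fold in senescent over young cells at 20% oxygen (log2 difference 1.05 ± 0.09 SE, n = 3 arrays a group, limma adjusted p = 9.97e-06), and was 1.66-fold higher than the mean of the other groups (log2 0.73 ± 0.07, adjusted p = 2.6e-05). The other 3 pump subunits did not pass the test against the mean of the other groups: ATP6V1A, the catalytic subunit that binds ATP, was at log2 0.21 ± 0.07 (adjusted p = 0.0795), ATP6V0D1, which couples the membrane part to the stalk, at 0.16 ± 0.14 (adjusted p = 0.599), and ATP6V1H, a regulatory subunit, at 0.07 ± 0.08 (adjusted p = 0.726). The 2 probe sets of ATP6V1A disagreed. One was called higher (0.42 ± 0.08, limma adjusted p = 0.00321 over all probe sets), and the other read 0.003. ATP6V1A as a gene was called in 4 of 22 alternatives.

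Of the 8 glycosidases measured, FUCA1 and MAN2B1 rose in senescent cells over the mean of the other groups and none fell. FUCA1 removes fucose from glycoproteins and had log2 values of 0.73, 0.69 and 0.59 on the senescent arrays, against 0.17, -0.30 and -0.44 on the old 3% arrays, -0.27, -0.02 and -0.38 on the young 3% arrays and 0.13, -0.0047 and -0.17 on the young 20% arrays. Every senescent array lay above every other one, and the difference was 0.81 ± 0.12 (1.75-fold, adjusted p = 0.000711). Its 2 probe sets disagreed, at 1.48 and 0.14 with only the first called. MAN2B1, an alpha-mannosidase, had log2 values of 0.37, 0.80 and 0.19 on the senescent arrays, against 0.09, 0.02 and -0.53 on the old 3% arrays, -0.77, -0.36 and -0.27 on the young 3% arrays and -0.09, 0.03 and -0.02 on the young 20% arrays. The senescent arrays were the highest, with replicate 2 far above the others, and the difference of 0.67 ± 0.16 (1.59-fold, adjusted p = 0.0124) was no longer called without senescent replicate 2 (adjusted p = 0.0937, against 0.000378 to 0.0937 over all alternatives). The alpha subunit of beta-hexosaminidase, HEXA, and the glycogen-digesting GAA were at 0.25 ± 0.09 and 0.23 ± 0.09 and did not pass (adjusted p = 0.111 and 0.126). GUSB, NEU1, IDUA and NAGLU were between log2 -0.09 and 0.22, also without a call.

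The probe set shared by GLB1 and TMPPE read 0.31, 0.33 and 0.23 on the senescent arrays, against 0.03, -0.07 and -0.39 on the old 3% arrays, -0.02, 0.02 and -0.24 on the young 3% arrays and -0.06, 0.16 and -0.15 on the young 20% arrays. The senescent arrays lay above all others. In a fit over all probe sets the difference of 0.37 ± 0.11 (1.29-fold) missed the threshold (adjusted p = 0.0526), and so did senescent minus young cells at 20% oxygen (0.30 ± 0.13, adjusted p = 0.239). Signal of the 2 genes on this probe set cannot be told apart.

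Among the 4 sulfatases, SGSH and IDS rose in senescent cells over the mean of the other groups. SGSH, which takes sulfate from heparan sulfate, had log2 values of 0.30, 0.24 and 0.38 on the senescent arrays, against -0.25, -0.24 and -0.25 on the old 3% arrays, -0.74, -0.57 and -0.48 on the young 3% arrays and 0.31, 0.44 and 0.25 on the young 20% arrays. Its values split by oxygen: the 20% arrays, senescent and young, overlapped with each other and lay above all 3% arrays, and the old 3% arrays lay above the young 3% ones. The difference to the mean of the other groups was 0.48 ± 0.08 (1.39-fold, adjusted p = 0.000966), with no call between senescent and young cells at 20% oxygen (-0.03 ± 0.09, adjusted p = 0.932). IDS, which acts on dermatan and heparan sulfate, had log2 values of 0.29, 0.40 and 0.12 on the senescent arrays, against 0.01, -0.07 and -0.08 on the old 3% arrays, -0.19, -0.20 and -0.17 on the young 3% arrays and 0.01, 0.04 and 0.06 on the young 20% arrays. The senescent arrays were above all others, by 0.34 ± 0.07 (1.26-fold, adjusted p = 0.00663), and the call ended without senescent replicate 2 (adjusted p = 0.0562, against 8.26e-05 to 0.253 over all alternatives). ARSA, which desulfates sulfatide, and ARSB, which acts on dermatan and chondroitin sulfate, were at 0.25 ± 0.14 and 0.14 ± 0.12 (adjusted p = 0.339 and 0.57).

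Among the 10 proteases, CTSA, CTSB, CTSD and LGMN rose in senescent cells over the mean of the other groups and none fell. CTSB, a cysteine cathepsin, had log2 values of 0.57, 0.53 and 0.57 on the senescent arrays, against 0.05, -0.14 and -0.18 on the old 3% arrays, -0.22, -0.50 and -0.21 on the young 3% arrays and 0.01, 0.04 and 0.03 on the young 20% arrays. The senescent arrays lay close together and above all others, and the rise was 0.68 ± 0.08 (1.6-fold, adjusted p = 9.89e-05). All 5 CTSB probe sets were called higher, from 0.36 to 1.10. CTSA, the protective protein that forms a complex with beta-galactosidase and neuraminidase, had log2 values of 0.54, 0.60 and 0.55 on the senescent arrays, against -0.07, 0.02 and -0.38 on the old 3% arrays, -0.05, -0.31 and -0.28 on the young 3% arrays and 0.14, 0.28 and -0.02 on the young 20% arrays. Again the senescent arrays were above all others (0.64 ± 0.10, 1.56-fold, adjusted p = 0.000774). CTSD, the aspartic cathepsin, had log2 values of 0.53, 0.73 and 0.52 on the senescent arrays, against 0.09, 0.38 and -0.20 on the old 3% arrays, -0.86, -0.04 and -0.08 on the young 3% arrays and -0.14, 0.0033 and -0.0033 on the young 20% arrays. Young 3% replicate 1 was far below the rest, and the rise of 0.69 ± 0.16 (1.61-fold, adjusted p = 0.0129) was not called without senescent replicate 2 (adjusted p = 0.0757, against 0.000469 to 0.0757 over all alternatives). LGMN, an asparaginyl endopeptidase, was higher by 0.48 ± 0.13 (adjusted p = 0.0304), but not without senescent replicate 1, 2 or 3, or young 20% replicate 1 or 3 (adjusted p = 0.0506 to 0.163, against 0.00254 to 0.163 over all alternatives). The 6 other proteases showed no call here. CTSH, CTSL, CTSS and CTSZ lay between -0.13 and 0.002, TPP1 was at 0.22 ± 0.08 (adjusted p = 0.113), and CTSK, a collagen-degrading cathepsin, at -0.04 ± 0.11 (adjusted p = 0.87).

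Lipid handling held most of the calls by share. Of 8 genes, 6 rose in senescent cells over the mean of the other groups (PSAP, LIPA, ASAH1, SMPD1, GM2A and NPC2) and NPC1 fell. PSAP is the precursor of the saposins, which help hydrolases reach sphingolipids, and had log2 values of 0.42, 0.51 and 0.46 on the senescent arrays, against -0.11, -0.24 and -0.38 on the old 3% arrays, -0.21, -0.31 and -0.22 on the young 3% arrays and 0.10, 0.33 and 0.08 on the young 20% arrays. The senescent arrays were above all others, by 0.57 ± 0.08 (1.48-fold, adjusted p = 0.000394). NPC2, which binds cholesterol in the lumen and hands it to NPC1, had log2 values of 0.31, 0.51 and 0.35 on the senescent arrays, against 0.04, -0.07 and -0.05 on the old 3% arrays, 0.15, -0.14 and 0.11 on the young 3% arrays and -0.06, -0.04 and -0.04 on the young 20% arrays. It rose by 0.40 ± 0.08 (1.32-fold, adjusted p = 0.00441) with no overlap. NPC1, the membrane protein that exports cholesterol from the lysosome, ran the other way, with log2 values of -0.38, -0.26 and -0.23 on the senescent arrays, against 0.30, 0.24 and 0.07 on the old 3% arrays, -0.19, -0.21 and -0.18 on the young 3% arrays and 0.04, 0.14 and -0.02 on the young 20% arrays. The senescent arrays were the lowest of the 12 and the old 3% arrays mostly the highest, and NPC1 changed by -0.31 ± 0.07 (adjusted p = 0.0126). This call was lost without senescent replicate 1 (adjusted p = 0.0915, against 1.62e-05 to 0.488 over all alternatives).

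Smaller rises were found for the lipid hydrolases. LIPA, the acid lipase that frees cholesterol from its esters, was higher by 0.34 ± 0.08 (adjusted p = 0.0146), lost without senescent replicate 1 or 3 (adjusted p = 0.0905 and 0.065, against 9.81e-05 to 0.0905 over all alternatives). ASAH1, acid ceramidase, was higher by 0.31 ± 0.08 (adjusted p = 0.0155), lost without senescent replicate 1 or 2 (adjusted p = 0.0879 and 0.0729, against 0.000124 to 0.383 over all alternatives). The values of ASAH1 were 0.23, 0.21 and 0.11 on the senescent arrays, against 0.07, -0.09 and -0.21 on the old 3% arrays, -0.31, -0.36 and -0.42 on the young 3% arrays and 0.03, 0.01 and 0.14 on the young 20% arrays, so that the young 3% arrays were the lowest and senescent and young 20% arrays overlapped. SMPD1, acid sphingomyelinase, was higher by 0.43 ± 0.11 (adjusted p = 0.0241), lost without senescent replicate 1 or 2 (adjusted p = 0.0556 and 0.165, against 0.000126 to 0.515 over all alternatives). All 3 calls thus ended without senescent replicate 1. GM2A, the activator that presents GM2 ganglioside to hexosaminidase, was higher by 0.28 ± 0.08 (adjusted p = 0.0316), lost without senescent replicate 1, 2 or 3, or young 20% replicate 1 or 2 (adjusted p = 0.055 to 0.123, against 0.000382 to 0.668 over all alternatives), and with the replicate block over all arrays (adjusted p = 0.051). PPT1, a thioesterase that removes fatty acids from proteins, was at -0.26 ± 0.10 and not called (adjusted p = 0.134).

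Of the 5 membrane proteins, LAMP2 and LAMP1 rose in senescent cells over the mean of the other groups. LAMP2, which lines the lysosome and takes part in chaperone-mediated autophagy, had log2 values of 0.42, 0.44 and 0.39 on the senescent arrays, against 0.22, -0.0047 and 0.02 on the old 3% arrays, -0.03, -0.25 and -0.18 on the young 3% arrays and -0.01, -0.07 and -0.18 on the young 20% arrays. Every senescent array was above every other array (0.47 ± 0.08, 1.39-fold, adjusted p = 0.00123). LAMP1, its close relative, had log2 values of 0.31, 0.26 and 0.11 on the senescent arrays, against 0.08, -0.04 and -0.002 on the old 3% arrays, -0.07, -0.02 and 0.01 on the young 3% arrays and -0.14, -0.03 and -0.14 on the young 20% arrays. The smallest senescent value was just above the rest, and the rise of 0.27 ± 0.07 (1.2-fold, adjusted p = 0.0238) was lost without senescent replicate 1 or 2, or young 20% replicate 1 (adjusted p = 0.0504 to 0.142, against 0.000231 to 0.441 over all alternatives). CD63, a tetraspanin of late endosomes and lysosomes, was also highest on all 3 senescent arrays, from 0.10 to 0.21, against -0.08 to 0.07 on the other 9, but missed the threshold (0.17 ± 0.07, adjusted p = 0.118). SCARB2, the sorting receptor of glucocerebrosidase, was at -0.26 ± 0.13 and MCOLN1, a calcium channel, at 0.21 ± 0.11, neither called (adjusted p = 0.269 and 0.297). TFEB, the transcription factor that turns on many genes of this list, was at 0.09 ± 0.13 (adjusted p = 0.769), with senescent values from -0.05 to 0.30 inside the range of the other 9 arrays, -0.37 to 0.50.

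**Figure D3:**
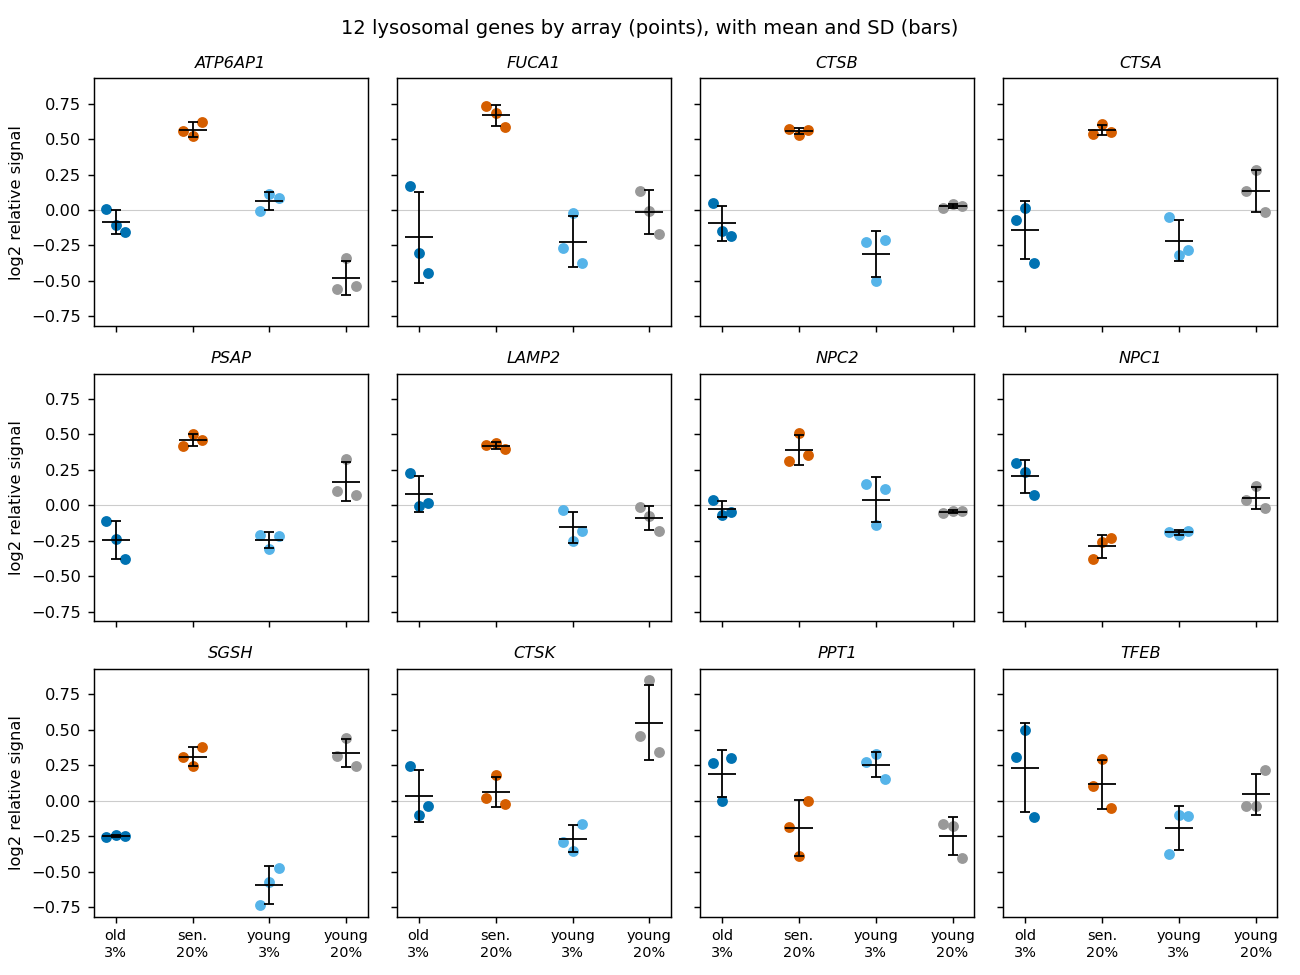
Log2 signal per array (points), with group mean and SD (bars), of 12 lysosomal genes in old 3%, senescent 20%, young 3% and young 20% oxygen cells, relative to the median over the arrays (n = 3 a group). ATP6AP1 was between 0.52 and 0.62 on the senescent arrays and between -0.55 and -0.34 on the young 20% arrays, while NPC1 was lowest in senescent cells.

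Within 20% oxygen, the comparison of senescent with young cells asks what changed with passage to senescence. Here 9 of 40 lysosomal genes rose and 2 fell, 22.5% and 5%, where 4.67% of all genes were called higher and 7.84% lower. The median log2 difference was 0.17 over the 40 genes and 0.04 over all genes. Beside ATP6AP1, the rises were led by FUCA1 (0.68 ± 0.15, 1.6-fold, adjusted p = 0.00956), CTSB (0.53 ± 0.10, adjusted p = 0.00343), LAMP2 (0.51 ± 0.10, adjusted p = 0.00346) and NPC2 (0.44 ± 0.10, adjusted p = 0.00967). CTSA (0.43), LIPA (0.39), GM2A (0.33) and LAMP1 (0.33) also rose, while CTSK (-0.49) and NPC1 (-0.34) fell. Other genes called against the mean of the 3 groups were not called here: PSAP (0.30 ± 0.10, adjusted p = 0.0751), CTSD (0.64 ± 0.20, adjusted p = 0.0563), MAN2B1 (0.48), LGMN (0.35), SMPD1 (0.32), IDS (0.24), ASAH1 (0.12 ± 0.09, adjusted p = 0.552) and SGSH. The calls of CTSA, LIPA, GM2A, LAMP1, CTSK and NPC1 were each lost in some fits with 1 array left out. Such a fit has fewer arrays, so a lost call need not mean that the difference rested on that array. CTSA was at 0.36 to 0.45 in the fits that lost it, and GM2A stayed at 0.33 without old replicate 2. Why calls were lost was not tested. The count was 5 without senescent replicate 1 or young 20% replicate 1, and 7 without senescent replicate 2 or 3. CTSA was lost without senescent replicate 1, 2 or 3, or young 20% replicate 1 or 3 (adjusted p = 0.0812 to 0.136, against 0.000344 to 0.136 over all alternatives), and LIPA without senescent replicate 1 or 3, or young 20% replicate 1 or 3 (adjusted p = 0.0682 to 0.0913, against 5.81e-05 to 0.0913 over all alternatives). GM2A was lost without senescent replicate 1, 2 or 3, or old replicate 2, or young 3% replicate 3, or young 20% replicate 1 or 2 (adjusted p = 0.0543 to 0.171, against 0.000155 to 0.366 over all alternatives), and LAMP1 without senescent replicate 1 or 2, or young 20% replicate 1 or 3 (adjusted p = 0.08 to 0.103, against 5.49e-05 to 0.623 over all alternatives). CTSK was lost without senescent replicate 1 or 3, or young 20% replicate 1 or 2 (adjusted p = 0.0625 to 0.145, against 0.00068 to 0.145 over all alternatives), and NPC1 without senescent replicate 1 or 2, or young 20% replicate 1 or 2 (adjusted p = 0.0531 to 0.109, against 3.67e-05 to 0.38 over all alternatives).

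**Figure D4:**
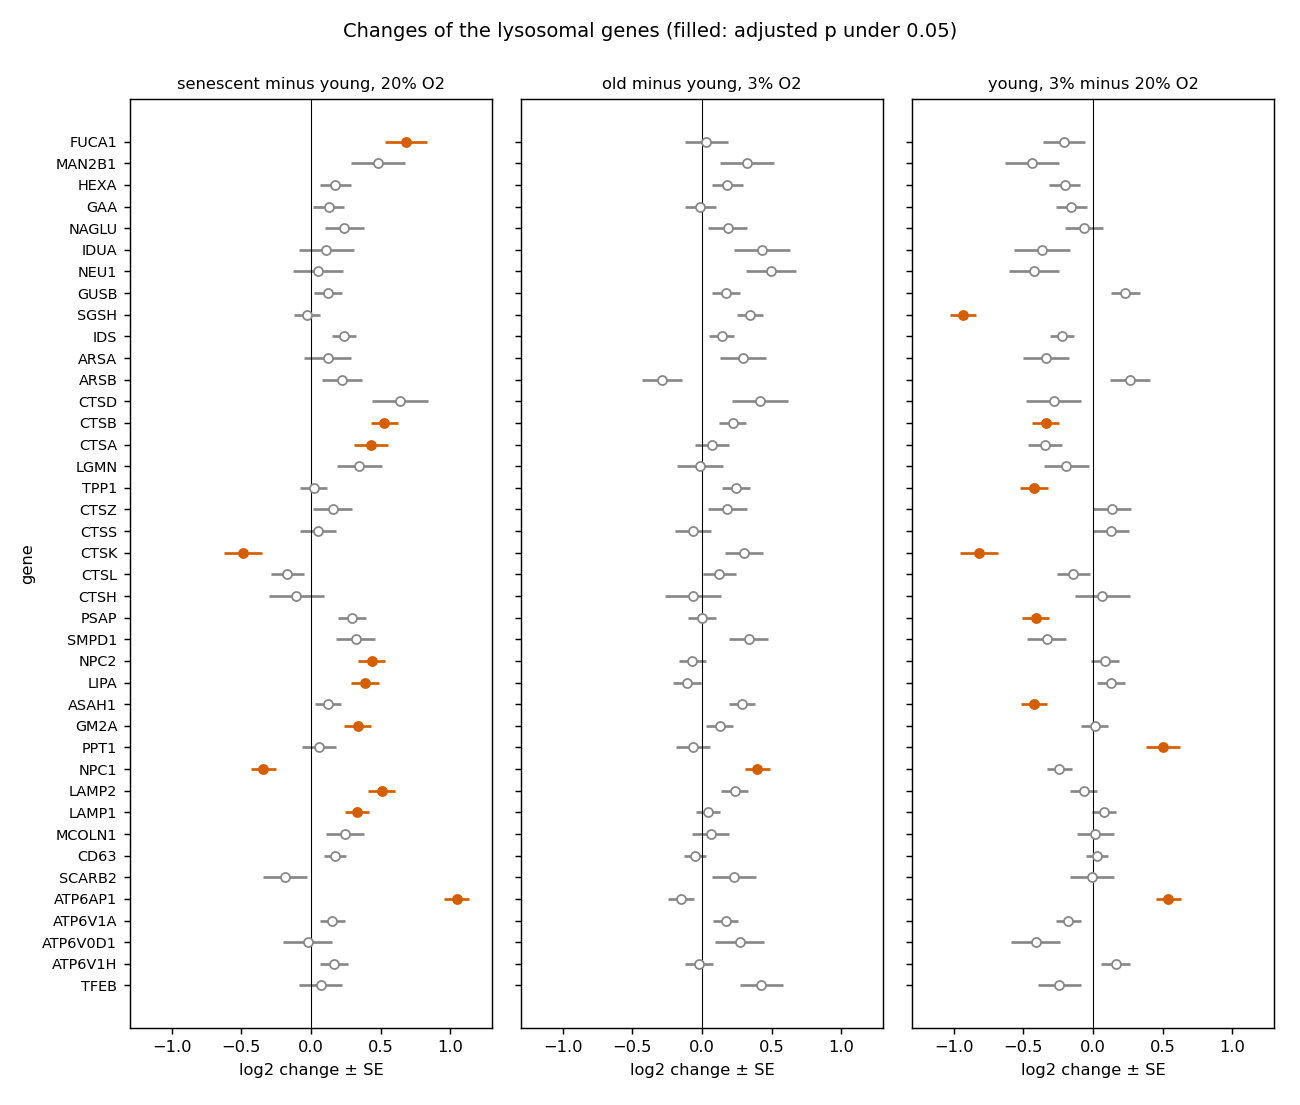
Log2 difference with its standard error (limma) of each lysosomal gene in the comparisons named above the panels, filled where the adjusted p was under 0.05. ATP6AP1 was 1.05 higher with senescence at 20% oxygen, and SGSH was lowest in young 3% against young 20% cells, at -0.93.

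Young cells in 3% oxygen, set against young cells in 20%, had lower rather than higher lysosomal RNA among the genes called. Of the 40 genes, 6 fell (15%, where 6.84% of all genes were called lower) and 2 rose (5%, where 4.96% were called higher). The median log2 difference was -0.18, and -0.03 over all genes. SGSH fell most, 1.91-fold (log2 -0.93 ± 0.09, adjusted p = 2.27e-05), with no overlap between -0.74, -0.57 and -0.48 in young 3% cells and 0.31, 0.44 and 0.25 in young 20% cells. CTSK fell 1.76-fold (-0.82 ± 0.14, adjusted p = 0.00142), with -0.29, -0.35 and -0.16 in young 3% and 0.46, 0.85 and 0.34 in young 20% cells. The other falls were of ASAH1 (-0.42 ± 0.09, adjusted p = 0.00889), TPP1 (-0.42 ± 0.10), PSAP (-0.41 ± 0.10) and CTSB (-0.34 ± 0.10). ATP6AP1 rose 1.46-fold (0.54 ± 0.09, adjusted p = 0.00148), and PPT1 rose 1.41-fold (0.50 ± 0.12, adjusted p = 0.0171). SGSH, CTSK, ASAH1 and ATP6AP1 kept their calls with any array left out. TPP1 was lost without young 20% replicate 2 (adjusted p = 0.0671, against 0.00555 to 0.688 over all alternatives), PSAP without young 3% replicate 2, or young 20% replicate 2 (adjusted p = 0.052 and 0.074, against 0.00662 to 0.074 over all alternatives), PPT1 without young 3% replicate 2, or young 20% replicate 3 (adjusted p = 0.0628 and 0.0823, against 0.0112 to 0.0823 over all alternatives) and CTSB without senescent replicate 1, 2 or 3, or old replicate 2, or young 3% replicate 2, or young 20% replicate 1, 2 or 3 (adjusted p = 0.0551 to 0.142, against 0.0159 to 0.142 over all alternatives). The count was 5 without young 3% replicate 2 or young 20% replicate 2. TPP1, CTSB and ASAH1 were also lost without probe sets that can cross-hybridise. Of the TPP1 probe sets, only that at -0.66 was called lower, and its name, ending in s_at, put it among those left out. Young 3% replicate 2 also had the highest 3′ over 5′ difference of the ACTB and GAPDH control probe sets, 0.53 against -0.14 to 0.26 on the other 11 arrays, and the count stayed at 8 with that difference as a covariate.

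Between old nonsenescent and young cells in 3% oxygen, NPC1 was the only one of the 40 genes called, and it rose in old cells (2.5%, where 0.981% of all genes were called higher, 0.759% lower and 1.74% in either direction). NPC1 had 0.30, 0.24 and 0.07 in old 3% cells, against -0.19, -0.21 and -0.18 in young 3% cells, with no overlap (0.40 ± 0.09, adjusted p = 0.049). The call was at the threshold and ended in 21 of 24 alternatives, among them the loss of any array but old replicate 3 (adjusted p = 0.0639 to 0.193, against 0.00448 to 0.26 over all alternatives). The median log2 difference was 0.17 over the 40 genes and 0.05 over all genes.

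Whether the passage change differed between the oxygen levels was tested as an interaction, senescent minus young at 20% less old minus young at 3%. Of 40 genes, 2 were higher and 2 lower (5% each way, where 2.06% of all genes were called higher, 4.37% lower and 6.44% in either direction). ATP6AP1 had 1.05 at 20% and -0.15 at 3% oxygen, a difference of 1.19 ± 0.13 (adjusted p = 0.000124). NPC1 had -0.34 at 20% and 0.40 at 3%, a difference of -0.74 ± 0.13 (adjusted p = 0.00374). NPC2 (0.50 ± 0.14, adjusted p = 0.049) and CTSK (-0.79 ± 0.19, adjusted p = 0.0287) were called with less margin. NPC2 was lost without senescent replicate 1, 2 or 3, or old replicate 1, 2 or 3, or young 3% replicate 1 or 3, or young 20% replicate 1, 2 or 3 (adjusted p = 0.0675 to 0.116, against 0.0116 to 0.116 over all alternatives), and CTSK without senescent replicate 1 or 3, or old replicate 1, or young 3% replicate 1 or 2, or young 20% replicate 1 or 2 (adjusted p = 0.0502 to 0.0743, against 0.0124 to 0.0743 over all alternatives). With the replicate number as a block over all arrays, NPC2 (adjusted p = 0.0854) and CTSK (adjusted p = 0.051) were both lost, and ATP6AP1 and NPC1 were the 2 genes still called. The count was 2 as well without senescent replicate 1 or 3, young 3% replicate 1, or young 20% replicate 1 or 2.

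Old nonsenescent cells in 3% oxygen and senescent cells in 20% oxygen are the study's late cells, and differ in oxygen as well as in state. Of the 40 genes, 11 fell in old 3% cells relative to senescent cells and NPC1 rose (27.5% and 2.5%, where 4.41% of all genes were called lower and 6.59% higher). The median log2 difference was -0.19, and -0.02 over all genes. The clearest falls were of PSAP (-0.71 ± 0.10, adjusted p = 0.000357), ATP6AP1 (-0.65 ± 0.09, adjusted p = 0.000363), CTSB (-0.65 ± 0.10, adjusted p = 0.00077), SGSH (-0.56 ± 0.09, adjusted p = 0.00154), CTSA (-0.71 ± 0.12, adjusted p = 0.00179) and FUCA1 (-0.86 ± 0.15, adjusted p = 0.00221). NPC1 rose by 0.49 ± 0.09 (adjusted p = 0.00272). NPC2 (-0.42), LIPA (-0.37), IDS (-0.32), LAMP2 (-0.34) and LGMN (-0.55) fell as well. NPC2 was lost without senescent replicate 2, or old replicate 2 (adjusted p = 0.0627 and 0.0558, against 0.00281 to 0.0627 over all alternatives). LIPA was lost without senescent replicate 1 or 3, or old replicate 2 or 3, or young 20% replicate 1 (adjusted p = 0.0535 to 0.125, against 0.00122 to 0.125 over all alternatives), and IDS without senescent replicate 1 or 2, or old replicate 1, 2 or 3, or young 20% replicate 1 or 2 (adjusted p = 0.0511 to 0.14, against 0.00287 to 0.349 over all alternatives). LAMP2 was lost without senescent replicate 1, 2 or 3, or old replicate 2 or 3, or young 3% replicate 3, or young 20% replicate 1 or 2 (adjusted p = 0.0542 to 0.145, against 0.00326 to 0.145 over all alternatives), and LGMN without senescent replicate 1, 2 or 3, or old replicate 1 or 3, or young 3% replicate 3, or young 20% replicate 1, 2 or 3 (adjusted p = 0.0526 to 0.176, against 0.0234 to 0.176 over all alternatives). With the replicate number as a block in these 6 arrays alone, 13 genes fell and 3 rose: MAN2B1 (adjusted p = 0.0111), CTSD (0.0131) and SMPD1 (0.0482) fell, SCARB2 (0.0206) and PPT1 (0.0225) rose, and IDS lost its call (adjusted p = 0.0586). This comparison, the interaction and both comparisons of senescent cells share the same senescent arrays.

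The probe sets of a gene did not always move together. Of the 103 lysosomal probe sets, 33 were higher and 2 lower in senescent cells than in the mean of the other groups, where 9.81% of all probe sets were called in either direction. The share of all probe sets in each direction was not counted. Among the 25 genes with several probe sets, the differences within a gene spanned at most 0.5 for 15, more than 1 for 3, and had opposite signs for 8. The fall of NPC1 came from 1 probe set, at -1.20, while its other 3 probe sets were between -0.17 and 0.07 and not called. GM2A had 2 of 7 probe sets called, at 1.08 and 1.03, and the other 5 between -0.17 and 0.25. SMPD1 had 1 of 4 called, at 0.91, with the other 3 between 0.15 and 0.34. LIPA had 1 of 2 called, at 0.66, with the other at 0.02. One SCARB2 probe set was called lower, at -0.59. Single probe sets of ATP6V1A (0.42), HEXA (0.42) and TPP1 (0.51) were called higher, though the mean of each gene was not called. Among genes called in some comparison, ATP6AP1, CTSA, CTSD, CTSK, LGMN, MAN2B1, NPC2 and PPT1 rested on 1 probe set each. Those of ATP6AP1, CTSK and MAN2B1 have names ending in s_at, which were counted by name alone with those that can cross-hybridise. How the probe sets were joined ended some calls of senescent cells against the mean of the other groups: SMPD1, GM2A and NPC1 with the median of the probe sets, ASAH1 and LAMP1 with the most variable one, and IDS, ASAH1 and SMPD1 without those that can cross-hybridise. CTSB was called in every alternative of that comparison. Between senescent and young cells at 20% oxygen, CTSB was lost with the most variable probe set and without those that can cross-hybridise. In the same comparison GM2A and NPC1 were lost with the median, and LAMP1, CTSA and CTSK with the most variable probe set. In young 3% against young 20% cells, ASAH1 and CTSB were lost with the most variable probe set and without those that can cross-hybridise. CTSB was also lost with the median, and TPP1 without those that can cross-hybridise. In old 3% against senescent cells, SGSH, CTSB and IDS were lost with the most variable probe set. IDS was also lost without those that can cross-hybridise, and NPC1 with the median. LGMN there, and NPC2 in the interaction, were lost in each of these ways. CTSA, CTSK, LGMN and NPC2 have 1 probe set each, so their own values did not change.

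**Figure D5:**
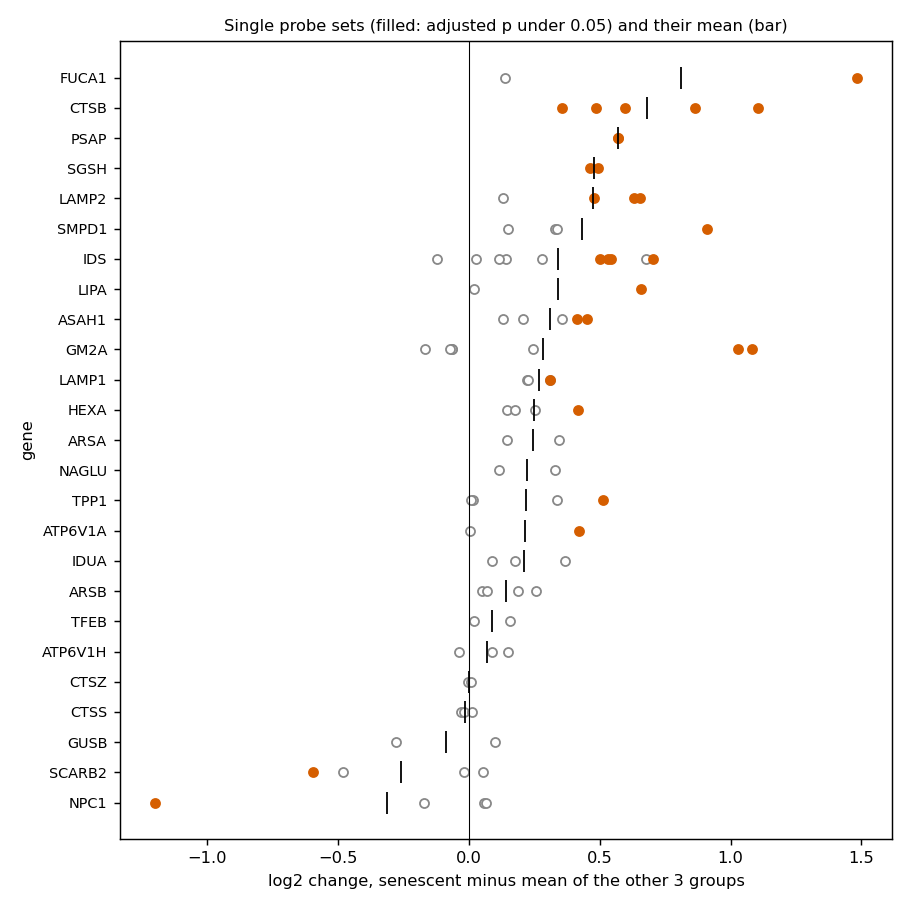
Log2 difference of senescent cells minus the mean of the other 3 groups for each probe set (points) of lysosomal genes with several, filled where called at an adjusted p under 0.05. All 5 CTSB probe sets were called higher, while FUCA1 (1.48 and 0.14) and NPC1 (-1.20 to 0.07) had 1 called probe set each.

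Further genes of the pathway were listed by role. In senescent cells against the mean of the other groups, 7 of 28 further hydrolases rose (25%) and 2 fell (7.14%), where 5.25% of all genes were called higher and 7.81% lower. CTSC, which activates serine proteases, had a log2 difference of 1.00 ± 0.08 (2-fold, adjusted p = 4.51e-06), but split by oxygen. It read 0.67, 0.70 and 0.65 on the senescent arrays, against -0.30, -0.57 and -0.60 on the old 3%, -0.79, -1.04 and -0.89 on the young 3% and 0.42, 0.41 and 0.44 on the young 20% arrays, and was not called between senescent and young cells at 20% (0.25 ± 0.10, adjusted p = 0.149). MAN2B2, a second alpha-mannosidase, rose by 0.77 and CTBS, a chitobiase, by 0.73, and both also rose over young cells at 20% alone (0.64 and 0.59). GGH, which trims glutamate from folates, changed direction with the comparison: it read -0.55, -0.67 and -0.62 on the senescent arrays, against 0.74, 0.61 and 0.59 on the old 3%, 0.55, 0.73 and 0.59 on the young 3% and -1.77, -1.75 and -1.96 on the young 20% arrays. GGH thus fell against the mean of the other groups (-0.43), rose 2.32-fold over young cells at 20% oxygen (1.21 ± 0.09, adjusted p = 3.86e-06), and was 5.47-fold higher in young 3% than in young 20% cells (2.45 ± 0.09, adjusted p = 2.05e-08). Of 22 further membrane proteins 2 rose (9.09%), SLC17A5, a sialic acid exporter (0.67), and OSTM1 (0.28). Of 18 further pump genes 3 rose (16.7%) and 1 fell. Those that rose were ATP6AP2 (0.64), the second accessory subunit, ATP6V0C (0.37), the proteolipid ring subunit, and ATP6V0A1 (0.31), while ATP6V0A2 (-0.36) fell. Of 15 genes of sorting to the lysosome, 2 rose (13.3%), among them IGF2R, the large mannose 6-phosphate receptor (0.39). Of 17 regulators of lysosomal genes only RRAGA, a GTPase that recruits mTORC1 to lysosomes, rose (0.30), which is 5.88% and close to the share of all genes. Autophagy had 7 of 22 genes higher (31.8%) and none lower, led by WIPI1 (0.74 ± 0.07, adjusted p = 8.91e-06) and MAP1LC3B (0.68), the LC3 protein of the autophagosome membrane. In senescent against young cells at 20% oxygen, 6 further hydrolases rose (21.4%) and 2 fell, and 5 autophagy genes rose (22.7%) and 1 fell, where 4.67% of all genes were called higher. In young 3% against young 20% cells, 2 further hydrolases rose (7.14%) and 4 fell (14.3%), and 3 autophagy genes fell (13.6%) with none higher, where 4.96% of all genes were called higher and 6.84% lower.

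Markers of the cell types that hold many lysosomes gave no call. None of 10 measured immune markers was called in any of the 6 comparisons, where 1.74% to 13.1% of all genes were called in either direction. Their mean log2 value was 0.01 to 0.13 on the senescent arrays, against -0.08 to 0.13 on the old 3%, -0.04 to 0.10 on the young 3% and -0.05 to 0.03 on the young 20% arrays. Of 8 fibroblast markers, 2 rose (PDGFRB and THY1, 25%) and 3 fell (COL3A1, VIM and PDGFRA, 37.5%) in senescent cells relative to the mean of the other groups. Of all genes, 5.25% were called higher and 7.81% lower there. The mean log2 value of the 8 was -0.10 to -0.07 on the senescent arrays, against -0.10 to 0.003 on the old 3%, -0.16 to -0.08 on the young 3% and 0.20 to 0.29 on the young 20% arrays. Against young cells at 20% oxygen alone, 4 of the 8 fell (DCN, -1.06, PDGFRA, -0.77, VIM, -0.62, and COL3A1, -0.56) and none rose, with a median of -0.31. That was 50% lower, where 7.84% of all genes were called lower. In young 3% against young 20% cells 3 of the 8 fell (DCN, THY1 and PDGFRA), and 3 were lower in the interaction (DCN, PDGFRA and VIM). Each was 37.5%, where 6.84% and 4.37% of all genes were called lower. Of 4 smooth muscle markers, CNN1 and ACTA2 (50%) fell in senescent cells both against the mean of the other groups and against young cells at 20%. The shares of all genes called lower were 7.81% and 7.84%. The part of these markers in the lysosomal differences was not tested. Because each probe set is centred, presence or absence of a marker cannot be read from these values.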

How the data were processed

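RNA of IMR-90 fibroblasts was measured on 12 Affymetrix arrays, and RMA was used, per the submitters' processing notes; its software and version are not given in the sources used here. The deposited values are log2 signals, with the base taken from RMA, and each probe set has a median of 0 over the arrays within 1e-06, so absolute levels and signal over background cannot be read; the number of arrays limits the precision. Of 54675 probe sets, 62 are controls, 41091 name 1 gene (41037 matched to current symbols), 1801 several and 11721 none. The mean of the probe sets of a gene was taken, giving 19775 genes.

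One limma fit (version 3.58.1, R 4.3.3; lmFit and eBayes) gave the 4 group means, with two-sided contrasts and Benjamini-Hochberg adjustment over all genes. Folds are 2 to the power of the log2 difference, and ± is its standard error. The fit was tested on simulated data with known changes. Genes, lists and roles were chosen with earlier results of these data known. All listed genes may be named, and of each further list up to 4 called genes with the largest change per comparison.

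The labels do not say what replicate numbers share. Deviations of same-numbered senescent and old arrays correlated at 0.129, 0.519 and 0.669, all over 0.1, which held for no other pair of groups, so a replicate block was added for these arrays alone, chosen after seeing the data. Alternatives were robust eBayes, quantile normalization again, arrays centred on their median, only the groups compared, array quality weights, the replicate block, the median or the most variable probe set per gene, leaving out probe sets that can cross-hybridise (names ending in x_at or s_at), leaving out flat genes, an RNA quality covariate (the 3' minus 5' difference of ACTB and GAPDH controls), an adjusted p under 0.01, and each array left out. These probe sets were taken by name alone, and cross-hybridisation itself was not measured. Genes with only x_at or s_at probe sets kept them in that alternative. Promoter letters were searched on both strands, and promoters of listed genes on chromosome 8 were left out. The measured listed genes there are CTSB, ASAH1 and ATP6V1H. The set of all genes with a promoter was not filtered in this way.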

Additional observations from a re-analysis of the deposited data

Results flagged for a closer look

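For 4 of 40 lysosomal genes the change with passage differed between the oxygen levels in the interaction test. That was 5% higher and 5% lower, where 2.06% of all genes were called higher, 4.37% lower and 6.44% in either direction. ATP6AP1 changed by 1.05 at 20% (senescent minus young) and by -0.15 at 3% oxygen (old minus young), a log2 difference of 1.19 (limma adjusted p = 0.000124). NPC1, at -0.34 and 0.40, differed by -0.74 (adjusted p = 0.00374), and only 1 of its 4 probe sets was called lower in senescent cells. CTSK, at -0.49 and 0.30, differed by -0.79 (adjusted p = 0.0287). NPC2, at 0.44 and -0.07, differed by 0.50 (adjusted p = 0.049). With the replicate number as a block over all arrays, CTSK and NPC2 were not called (adjusted p = 0.051 and 0.0854), and both calls also ended without single arrays. The oxygen levels had separate incubators, and the late cells of each differ in doublings and in state.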

How the results depend on the processing

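No call reversed under any alternative. Of 54 calls of a gene in a comparison, 21 held under every alternative and 33 were lost under some. Joining probe sets in another way could not change the values of genes with 1 probe set. Leaving out x_at and s_at probe sets could not change those of genes with no others, among them ATP6AP1, PSAP and CTSK. Some of the 21 are calls of such genes. Numbers of genes called were 18 (senescent against the other groups), 11 (senescent against young at 20%), 1 (old against young at 3%), 8 (young 3% against 20%), 12 (old 3% against senescent) and 4 (interaction). At an adjusted p under 0.01 they were 9, 5, 0, 4, 7 and 2. Array quality weights gave 21 for senescent against young at 20%, 19 for old 3% against senescent and 8 for the interaction, while the share of all genes called was 31.4%, 20.9% and 13.6% (12.5%, 11% and 6.44% without weights). The replicate block over all arrays gave 0 for old against young at 3% and 2 for the interaction; in the senescent and old arrays alone it gave 16 for old 3% against senescent. It moved no other count by more than 1.5 times. The call of old against young at 3% also became 0 with robust eBayes, quantile normalization again, centred arrays, the median of probe sets, without x_at and s_at probe sets, without flat genes, with the RNA quality covariate and with only the groups compared. Without x_at and s_at probe sets, young 3% against 20% had 5. Leaving out 1 array gave 10 to 19, 5 to 12, 0 to 1, 5 to 8, 8 to 14 and 2 to 4 in the order above. The causes were not tested. A fit of only the groups compared was not run for the interaction and the contrast with the other groups, which need all 4. Signal over background could not be weighed because the values are centred.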
